A study of Dugesia japonica with 12 samples.

Results

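A pair of transcripts annotated as small heat shock proteins was described in freshwater planarians exposed to the herbicide glyphosate. The 2 transcripts, TRINITY_DN38028_c0_g1 and TRINITY_DN38028_c0_g2, are the only listed genes of their assembly cluster, and 2 of the 30535 genes in the deposited table. They were selected because an earlier look at these data showed them high after exposure. Their difference from unexposed worms is therefore a description here, with no test. RNA came from whole worms of NH, a clonal strain of Dugesia japonica that propagates asexually in the laboratory. The 4 groups were untreated worms (control) and worms kept for 1, 3 or 5 days in 64 mg per L glyphosate, with 3 libraries of polyadenylated RNA in each group. All groups share the strain, the labels name no other agent or allele, and they give no sampling day for the control, no age, and no statement on pooling of worms. Whether replicate libraries stem from separate cultures is not said, so each p-value here covers the spread of these libraries alone, and that spread may be technical.

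Small heat shock proteins are chaperones that need no ATP. They carry an alpha-crystallin (HSP20) domain, assemble into large oligomers, bind proteins that have begun to unfold and keep them from aggregating. Bound proteins are later passed to HSP70 and its DnaJ partners for refolding. In animals, heat shock factors (HSF) drive the genes of these proteins during heat and other stresses, and the major egg antigen p40 of schistosomes, parasitic flatworms related to planarians, belongs to the same family.

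Both transcripts carry the same annotation hit, a partial small HSP protein of Dugesia japonica itself, and neither has a Swiss-Prot or Pfam entry in the table. Their identity rests on that hit alone. TRINITY_DN38028_c0_g1 is 578 bases long and was built from 5 assembled transcripts, and TRINITY_DN38028_c0_g2 is 397 bases long and was built from 2. Reads may have been split between 2 members of 1 assembly cluster, so the level of each alone is uncertain, and the sum of both is given beside them. Levels are in TPM, a unit of relative abundance already divided by transcript length, on which the 2 members can be compared.

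TRINITY_DN38028_c0_g1 stood at 30.7, 25.2 and 20.4 TPM in the 3 control libraries, 126, 118 and 119.8 TPM after 1 day, 189, 361 and 153 TPM after 3 days, and 246, 184 and 164 TPM after 5 days. TRINITY_DN38028_c0_g2 stood at 54.1, 35.3 and 34.8 TPM in control, 189.8, 169 and 188 TPM after 1 day, 251, 424 and 182 TPM after 3 days, and 299.8, 235 and 250.1 TPM after 5 days. The sum of both was 84.8, 60.5 and 55.3 TPM in control, 316, 287 and 308 TPM after 1 day, 440.2, 785 and 335 TPM after 3 days, and 546, 419 and 414 TPM after 5 days. For each member, all 9 exposed libraries lay above all 3 control libraries. The gap was wide: the lowest day 1 library was 3.39 times the highest control library in the sum, and the same quotient was 3.95 at day 3 and 4.88 at day 5. Among all 27329 genes tested, the day 1 libraries all exceeded the control libraries for 5.65% of genes, the day 3 libraries for 5.66% and the day 5 libraries for 7.7%. The 3 percentages are printed for scale only, since the pair was picked on this contrast.

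**Figure D1:**
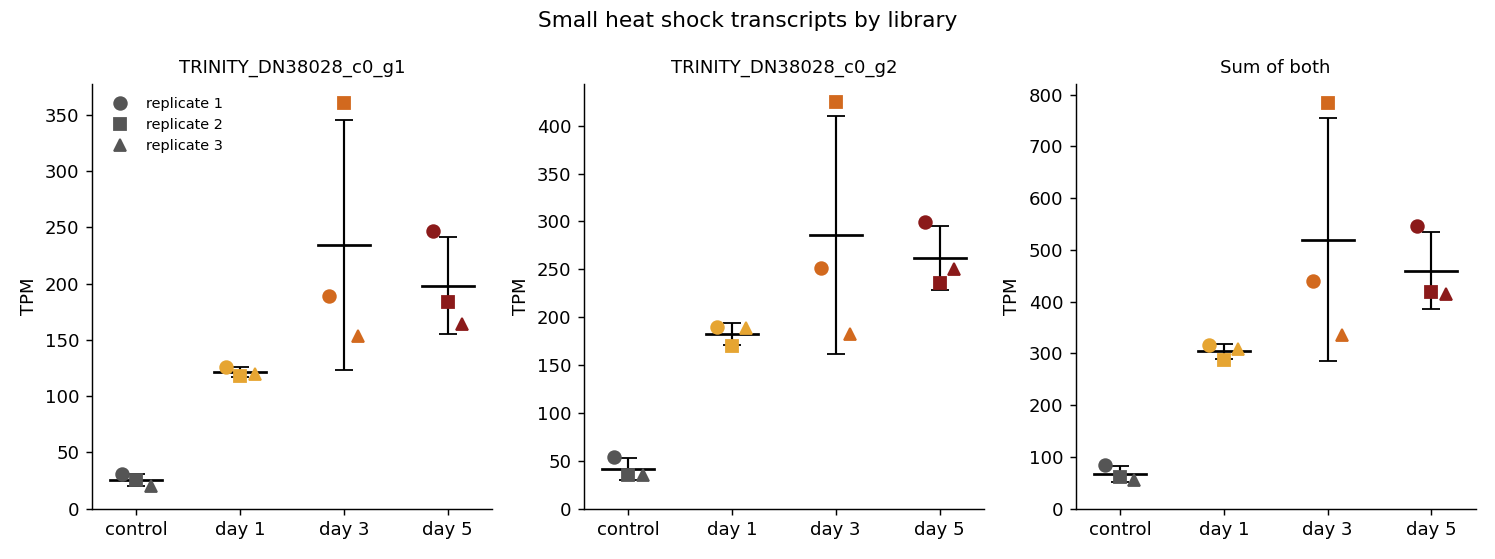
TPM of each transcript and of their sum in the 12 libraries, on a linear axis from 0, by group (control, then 1, 3 and 5 days of exposure), with marker shapes for replicates 1 to 3 and bars for the mean ± SD (n = 3). In all 3 panels the exposed libraries sit clear above the control libraries, and replicate 2 of day 3 is the highest library.

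As group means, the sum was 66.9 ± 15.8 TPM in control, 304 ± 14.7 TPM at day 1, 520.1 ± 235 TPM at day 3 and 459.9 ± 74.6 TPM at day 5 (SD, n = 3). Over the control mean these are 4.54-fold, 7.78-fold and 6.88-fold. TRINITY_DN38028_c0_g1 was 4.77-fold, 9.21-fold and 7.79-fold over its control mean at days 1, 3 and 5, and TRINITY_DN38028_c0_g2 was 4.41-fold, 6.90-fold and 6.32-fold. In the limma fit on log2(TPM + 1), a scale that understates the change of low genes, the sum differed from control by 2.19 at day 1, 2.87 at day 3 and 2.78 at day 5 on the log2 scale, each with a standard error of 0.26. In bulk RNA of whole worms, more cells that express these transcripts and more RNA per cell cannot be told apart.

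The pair was also placed among all genes by level. In control worms TRINITY_DN38028_c0_g2 ranked 1476 and TRINITY_DN38028_c0_g1 ranked 2276 of 30535 genes by mean TPM. At day 3 their ranks were 261 and 317, and at day 5 they were 272 and 358. Ordered by log2 difference from control over the 27329 genes tested, TRINITY_DN38028_c0_g1 held places 9, 3 and 7 at days 1, 3 and 5, and TRINITY_DN38028_c0_g2 held places 11, 7 and 8. Among the 4158 tested genes whose annotation hit is a flatworm protein they took the first 2 places at day 1 and at day 3. At day 5 1 such transcript ranked above them, TRINITY_DN32575_c0_g1, a hypothetical protein at 32.4 ± 1.95 TPM in day 5 worms and 3.05 ± 0.745 TPM in control worms (SD, n = 3 each).

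The share of all TPM taken by the pair, transcripts with hits to other organisms included, stayed small. It was 0.00680 ± 0.00163% of all TPM in control, 0.0308 ± 0.00142% after 1 day, 0.0530 ± 0.0242% after 3 days and 0.0467 ± 0.00764% after 5 days. Of the TPM of genes with flatworm hits it was 0.0485 ± 0.00487% in control, 0.241 ± 0.0350% after 1 day, 0.419 ± 0.138% after 3 days and 0.383 ± 0.0596% after 5 days (SD, n = 3). On both denominators day 1 lies between control and the later days.

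The spread among the 3 libraries of a group depended on the scaling. In TPM as deposited, the coefficient of variation of the sum was 23.6% in control, 4.84% after 1 day, 45.2% after 3 days and 16.2% after 5 days. Replicate 2 of day 3, at 785 TPM, set the day 3 spread. That library also had the highest size factor by median-ratio scaling, at 1.31, followed by control replicate 1 at 1.28, which had the highest sum among controls. After median-ratio scaling the sum was 61.8 ± 4.13 TPM in control, 316 ± 61.4 TPM at day 1, 495 ± 98.5 TPM at day 3 and 475 ± 73.3 TPM at day 5. On that scale day 3 ran from 404 to 599 TPM, and the coefficient of variation was 6.69% in control, 19.4% after 1 day, 19.9% after 3 days and 15.4% after 5 days.

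Whether the levels differed between exposure times could be tested, because the choice of the pair used the control contrast. No difference between times passed the threshold. Relative to day 1, the sum was higher by 0.68 at day 3 (SE 0.26, 95% interval 0.12 to 1.24, limma adjusted p = 0.456) and by 0.59 at day 5 (SE 0.26, interval 0.024 to 1.15, limma adjusted p = 0.461) on the log2 scale. The intervals are not adjusted for the number of genes, and the limma unadjusted p-values were 0.0206 and 0.0421. An unadjusted p under 0.05 was found for 2366 and 2793 of 27329 genes in these 2 comparisons. The day 5 minus day 3 difference was -0.096 (interval -0.66 to 0.47, limma adjusted p = 1), and without day 3 replicate 2 it was 0.25. The choice of the pair favours large differences from control at every time, so these tests are not fully independent of it.

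By member, TRINITY_DN38028_c0_g1 was higher at day 3 than at day 1 by 0.84 (SE 0.27, interval 0.27 to 1.42, limma adjusted p = 0.328) and higher at day 5 than at day 1 by 0.68 (interval 0.11 to 1.26, limma adjusted p = 0.364). For TRINITY_DN38028_c0_g2 the same differences were 0.56 (SE 0.26, interval 0.0010 to 1.12, limma adjusted p = 0.576) and 0.51 (interval -0.045 to 1.07, limma adjusted p = 0.537). Every day 5 library lay above every day 1 library for both members, a pattern in this direction met by 6.11% of all genes tested. Every day 3 library lay above every day 1 library for TRINITY_DN38028_c0_g1, a pattern met by 3.79% of genes. For TRINITY_DN38028_c0_g2 the libraries of days 3 and 1 overlapped. Days 5 and 3 overlapped for both members, where 3.25% of genes had every day 5 library above every day 3 library. Over all genes, limma called 0.179% at day 3 against day 1, 0.49% at day 5 against day 1, and 0.0% at day 5 against day 3, where 842 genes had an unadjusted p under 0.05.

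The balance between the 2 transcripts was a measure the selection had not used. The ratio of TRINITY_DN38028_c0_g2 to TRINITY_DN38028_c0_g1 was 1.76, 1.40 and 1.70 in control, 1.51, 1.44 and 1.57 at day 1, 1.33, 1.18 and 1.19 at day 3, and 1.22, 1.28 and 1.52 at day 5. TRINITY_DN38028_c0_g2 was the more abundant transcript in all 12 libraries. All 3 ratios of day 3 lay below all ratios of control and of day 1, while those of day 5 overlapped the other groups.

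Group means of that ratio were 1.62 ± 0.192 in control, 1.505 ± 0.0674 after 1 day, 1.23 ± 0.0833 after 3 days and 1.34 ± 0.161 after 5 days (SD, n = 3). In an exact permutation test of the log2 ratio over the 4 groups, 550 of 15400 partitions were as far apart or farther (p = 0.0357, smallest possible 6.49e-05). The result passed the 0.05 threshold narrowly and rested on single libraries. Leaving out 1 library at a time gave exact permutation p-values from 0.0132 to 0.0970. It was lost without control replicate 1 (0.0836) or control replicate 3 (0.0855), without day 1 replicate 1 (0.0643) or replicate 3 (0.0652), without day 3 replicate 2 (0.0970) or replicate 3 (0.0931), and without day 5 replicate 2 (0.0627). Because reads of 1 assembly cluster can be assigned to either member, the part of read assignment in the ratio was not tested.

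**Figure D2:**
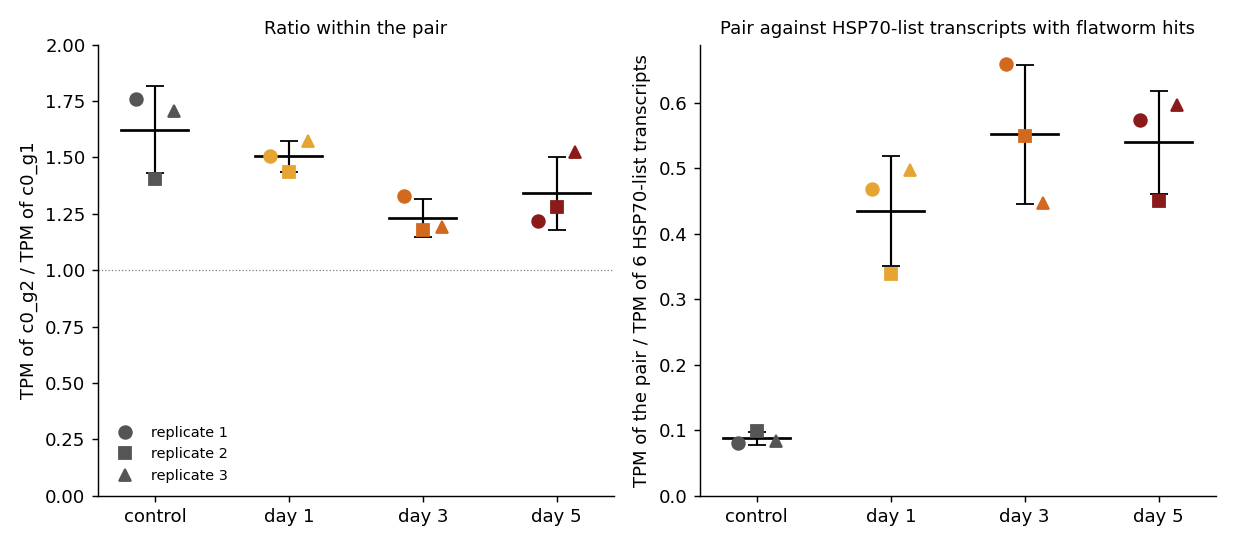
Ratio of TRINITY_DN38028_c0_g2 to TRINITY_DN38028_c0_g1 TPM, and of the pair's summed TPM to the summed TPM of 6 HSP70-list transcripts with flatworm hits (5 HSP70 proteins and 1 HSP70-interacting protein), in each of the 12 libraries by group; marker shapes are replicates 1 to 3 and bars are the mean ± SD (n = 3). The transcript ratio was lowest at day 3 (1.18 to 1.33), and the pair over HSP70 was above 0.3 in all exposed libraries and below 0.1 in all control libraries.

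Across the 12 libraries the 2 transcripts moved closely together. Their log2(TPM + 1) values correlated at r = 0.994, and at r = 0.937 after each group's mean was taken away, so they also shared the differences between replicates of 1 group. These correlations are over 12 libraries and the 2 values of a point come from the same library and the same assembly cluster.

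Markers of planarian cell types were read from transcripts with flatworm hits to check the tissue. DjPiwiA, a PIWI protein of neoblasts, the stem cells of planarians, ran from 57.7 to 137 TPM. Muscle troponin I ran from 25.1 to 74.96 TPM, neural prohormone convertase 2 from 20.6 to 43.8 TPM and gut cathepsin B from 24.5 to 72.8 TPM over the 12 libraries. Transcripts taken as markers of all 4 tissues were thus present, gut by 1 cathepsin B transcript alone. The summed ranges of 6 neoblast markers were 282 to 439 TPM in control, 230.0 to 308 TPM at day 1, 225 to 399 TPM at day 3 and 199 to 235 TPM at day 5.

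The 4 muscle markers summed to 64.6 to 129 TPM in control, 44.5 to 86.8 TPM at day 1, 49.7 to 108 TPM at day 3 and 47.2 to 115 TPM at day 5. The 3 neural markers ran over 49.8 to 89.1, 52.0 to 77.7, 44.5 to 82.3 and 58.7 to 64.3 TPM in the same order. The gut marker, cathepsin B alone, ran over 24.5 to 35.9, 24.6 to 43.4, 40.5 to 72.8 and 56.0 to 67.7 TPM. This 1 transcript, taken here as the gut marker, ran higher at days 3 and 5, where the pair was highest, though day 3 overlapped day 1. Neoblast markers were low at day 5. The part of cell composition in the pair's levels was not tested.

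RNA with hits to other organisms also varied. The summed TPM of 76 transcripts with ciliate hits was 1001 ± 198 in control, 799 ± 162 after 1 day, 701 ± 323 after 3 days and 528 ± 27.5 after 5 days. Transcripts with plant hits, 714 in number, summed to 6323 ± 780 TPM in control, 5819 ± 581 TPM at day 1, 5171 ± 422 TPM at day 3 and 5186 ± 295 TPM at day 5. The 71 with bovid hits varied most, from 37840 TPM in control replicate 1 to 5268 TPM in day 3 replicate 2, with means of 22822, 29849, 17462 and 15950 TPM in control and at days 1, 3 and 5. The 2 most abundant transcripts of the table took 45.1 ± 8.88% of TPM in control, 44.1 ± 4.76% after 1 day, 51.1 ± 3.92% after 3 days and 51.6 ± 3.02% after 5 days (SD, n = 3). The part of these shifts in the results was not tested, while the pair's log2 differences from control kept to 2.07 to 2.37 at day 1, 2.53 to 3.14 at day 3 and 2.65 to 2.96 at day 5 for the sum over 23 other settings, including 4 other scalings, of which 1 leaves out those 2 transcripts.

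Transcripts with an HSP20 domain, which neither transcript of the pair is listed with, were lower than the pair in every library, control or exposed, and held 0 calls. In control the most abundant of them stood at 21.3, 10.9 and 13.3 TPM, against 30.7, 25.2 and 20.4 TPM for TRINITY_DN38028_c0_g1. The wider gap in exposed worms restates the levels on which the pair was chosen. The table holds 12 transcripts with a Pfam HSP20 entry, a set picked after the data were seen, and limma called 0 of the 12 at any time over control, with 0, 0 and 3 at an unadjusted p under 0.05 at days 1, 3 and 5. Limma called 0.132%, 1.62% and 2.91% of all genes at those times, and 8.83%, 14.5% and 16.5% of all genes had an unadjusted p under 0.05. The medians of the 12 log2 differences were -0.23, -0.22 and -0.46, and the medians over all genes tested were -0.08, -0.06 and -0.09. A log2 difference above 0 was found for 0 of the 12 at day 1, for 2 at day 3 and for 2 at day 5.

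**Figure D3:**
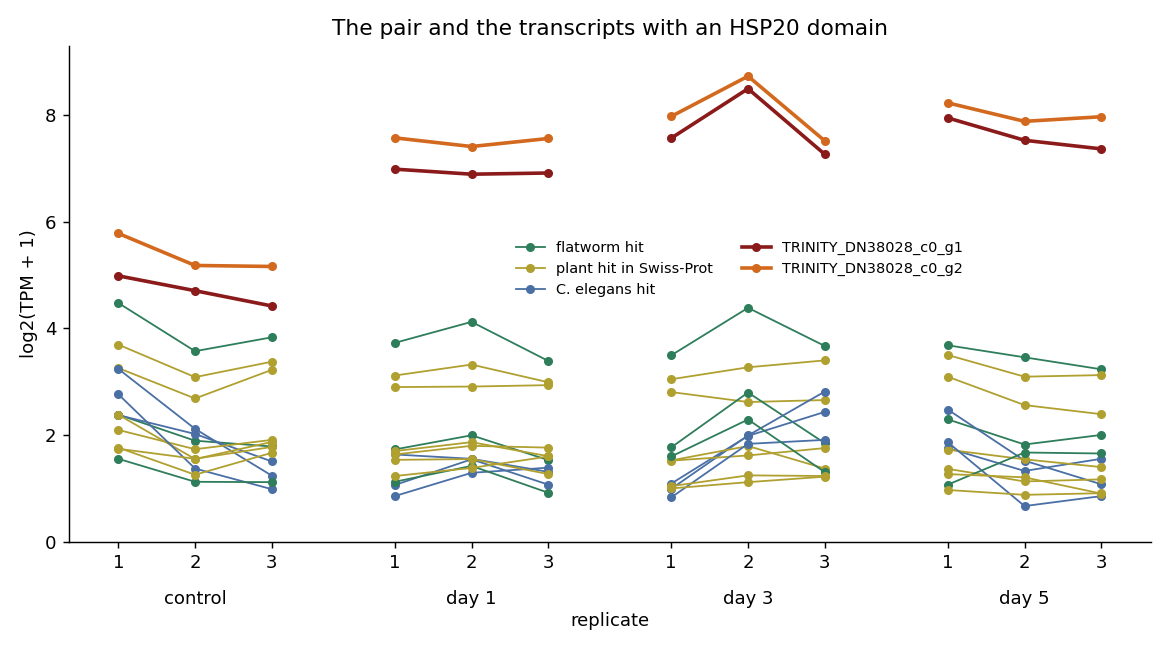
Levels as log2(TPM + 1) of the pair and of the 12 transcripts with a Pfam HSP20 entry in each library, by group and replicate; lines join the replicates of a transcript within a group and carry no order. The exposed libraries of the pair lie above every HSP20 transcript, whose highest library value was 21.3 TPM. Within each control library the pair also lies above them.

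The most abundant of them was TRINITY_DN31181_c0_g1, annotated as a major egg antigen with a flatworm hit. It averaged 15.2 ± 5.45 TPM in control, 12.7 ± 3.50 TPM at day 1, 13.99 ± 5.20 TPM at day 3 and 10.1 ± 1.73 TPM at day 5 (limma adjusted p = 0.87, 0.918 and 0.415 over control). A related transcript, TRINITY_DN36197_c0_g2, averaged 3.13 ± 0.954, 2.40 ± 0.554, 3.66 ± 2.00 and 3.15 ± 0.696 TPM. The major egg antigen p40 transcript TRINITY_DN29152_c0_g1 averaged 1.43 ± 0.442, 1.25 ± 0.400, 2.47 ± 1.27 and 1.81 ± 0.618 TPM in the same order. The control and exposed ranges of all 3 overlapped, and none reached the pair's level in any library, control or exposed.

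Of the 12, 3 had Swiss-Prot hits to small heat shock proteins of the nematode Caenorhabditis elegans. TRINITY_DN27750_c0_g1, with a hit to Hsp-16.1/Hsp-16.11, averaged 4.39 ± 3.67 TPM in control and 1.29, 3.34 and 2.52 TPM at days 1, 3 and 5. TRINITY_DN23519_c0_g1, with a hit to Hsp-16.48/Hsp-16.49, averaged 2.79 ± 2.63 TPM in control and 1.37, 2.04 and 1.35 TPM. TRINITY_DN6721_c0_g1, with a hit to stress-induced protein 1, averaged 3.03 ± 1.18 TPM in control and 1.84, 2.83 and 1.94 TPM.

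The other 6 were the ones that text patterns for small heat shock proteins caught, and all had plant Swiss-Prot hits. TRINITY_DN33764_c5_g5 averaged 8.54 ± 1.56 TPM at day 5 and 9.62 ± 2.25 TPM in control, and TRINITY_DN35972_c0_g1 averaged 5.57 ± 1.75 TPM at day 5 and 7.45 ± 1.75 TPM in control. TRINITY_DN29765_c0_g2, TRINITY_DN32021_c0_g2, TRINITY_DN5349_c0_g1 and TRINITY_DN32021_c0_g1 averaged 1.96, 1.34, 1.197 and 0.893 TPM at day 5. In control they averaged 2.79, 2.94, 2.24 and 1.99 TPM, in the same order of transcripts. TRINITY_DN32021_c0_g2 differed from control by -0.71 on the log2 scale at day 5 (limma adjusted p = 0.176). With 0 of 6 called at each time, their medians were -0.20, -0.37 and -0.47. All exposed libraries lay below all control libraries for 1, 2 and 4 of the 6 at days 1, 3 and 5. That order was met by 7.71%, 10.5% and 15.6% of all genes. At a limma unadjusted p under 0.05 there were 0, 0 and 3 of the 6, beside 8.83%, 14.5% and 16.5% of all genes.

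HSP70, the ATP-driven chaperone that takes over proteins held by small heat shock proteins, was compared with the pair within each library. The quotient was the pair's sum over the sum of 6 transcripts of the HSP70 list with flatworm hits, of which 5 are HSP70 proteins and 1, TRINITY_DN38522_c5_g1 at 3.71 ± 1.61 TPM in control, is an HSP70-interacting protein. It was 0.0804, 0.0987 and 0.0832 in control. It was 0.468, 0.339 and 0.497 at day 1, 0.660, 0.549 and 0.447 at day 3, and 0.573, 0.449 and 0.596 at day 5. The HSP70 sum itself averaged 777 ± 242 TPM in control, 714 ± 120 TPM at day 1, 949 ± 418 TPM at day 3 and 860.3 ± 143 TPM at day 5 (SD, n = 3). The HSP70 sums of the groups overlapped, so the gap in the quotient restates the levels on which the pair was chosen.

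Named HSP70, HSP90 and HSP40 transcripts of Dugesia japonica, a set of 8 chosen after the data were seen, were not called at any time by limma. The HSP70 transcript TRINITY_DN36275_c0_g1 averaged 402 ± 104 TPM in control, 391 ± 51.8 TPM at day 1, 382 ± 104 TPM at day 3 and 402 ± 49.6 TPM at day 5 (limma adjusted p = 0.99, 0.931 and 0.981). A second HSP70 transcript, TRINITY_DN36502_c0_g5, averaged 226 ± 97.6, 184 ± 31.4, 337 ± 191 and 257 ± 70.4 TPM in the same order. The HSP90 transcript TRINITY_DN35904_c0_g1 averaged 28.2 ± 8.15, 21.8 ± 5.80, 30.3 ± 13.6 and 30.9 ± 10.4 TPM (limma adjusted p = 0.79, 0.966 and 0.907). The HSP40 transcript TRINITY_DN31962_c0_g1, of the DnaJ family that feeds substrates to HSP70, averaged 213 ± 89.1, 162 ± 26.6, 280 ± 134 and 247 ± 73.2 TPM. Mortalin, the HSP70 of mitochondria, had 2 transcripts in the set. TRINITY_DN37472_c2_g1, with the largest log2 difference of the set at day 3, averaged 37.0 ± 7.76, 39.2 ± 13.4, 79.7 ± 50.6 and 70.1 ± 23.0 TPM in the same order. Its log2 differences were 0.05, 0.93 and 0.87 (limma adjusted p = 0.983, 0.235 and 0.236). The more abundant TRINITY_DN37212_c0_g3 averaged 79.5 ± 25.5, 62.4 ± 18.9, 106 ± 54.8 and 98.4 ± 30.6 TPM, with log2 differences of -0.34, 0.34 and 0.30.

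Over 6 chaperone lists with the pair left out, 138 transcripts were listed and 122 tested. Limma called 0 higher and 1 lower at day 1, 3 higher and 3 lower at day 3, and 1 higher and 4 lower at day 5. Those are 0.820%, 4.92% and 4.10% of the 122, beside 0.132%, 1.62% and 2.91% of all genes, of which 0.0842%, 0.428% and 0.681% were calls in the higher direction. With quantile normalization the split became 5 higher and 4 lower at day 3 and 7 higher and 5 lower at day 5, and with median-ratio scaling 5 and 3, and 7 and 5. Calls over all genes moved too, from 117 higher and 325 lower at day 3 and 186 and 609 at day 5. With quantile normalization they were 427 and 442 at day 3 and 679 and 746 at day 5, of 27329 genes. With median-ratio scaling they were 326 and 393, and 546 and 678, of 27166 genes. The median log2 differences were -0.20, -0.0090 and -0.15, against -0.08, -0.06 and -0.09 over all genes tested.

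By list, 49 DnaJ transcripts had 0 calls at every time. At an unadjusted p under 0.05 there were 4, 7 and 8 of the 49, which is near the all-gene background. The 28 HSP70 transcripts had 0 calls at day 1, 2 higher and 1 lower at day 3 (10.7%), and 1 higher and 1 lower at day 5 (7.14%). The 6 HSP90 transcripts had 1 call, lower at day 5 (16.7%). The 18 chaperonin transcripts, which code for the folding cage of mitochondria and cytosol and their relatives, had 1, 2 and 2 calls at days 1, 3 and 5 (5.56%, 11.1% and 11.1%), all lower. The day 1 call, and 1 of the 2 at each later day, was TRINITY_DN41427_c0_g1, whose Swiss-Prot hit is bacterial. That transcript met the filter of 1 TPM in 3 libraries through control alone. The 15 transcripts of co-chaperones and heat shock factors had 1 call, higher at day 3 (6.67%). Over all genes limma called 0.132%, 1.62% and 2.91% at days 1, 3 and 5. Of those calls 13, 325 and 609 were lower and 23, 117 and 186 higher, so lower calls prevailed at days 3 and 5 in general.

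**Figure D4:**
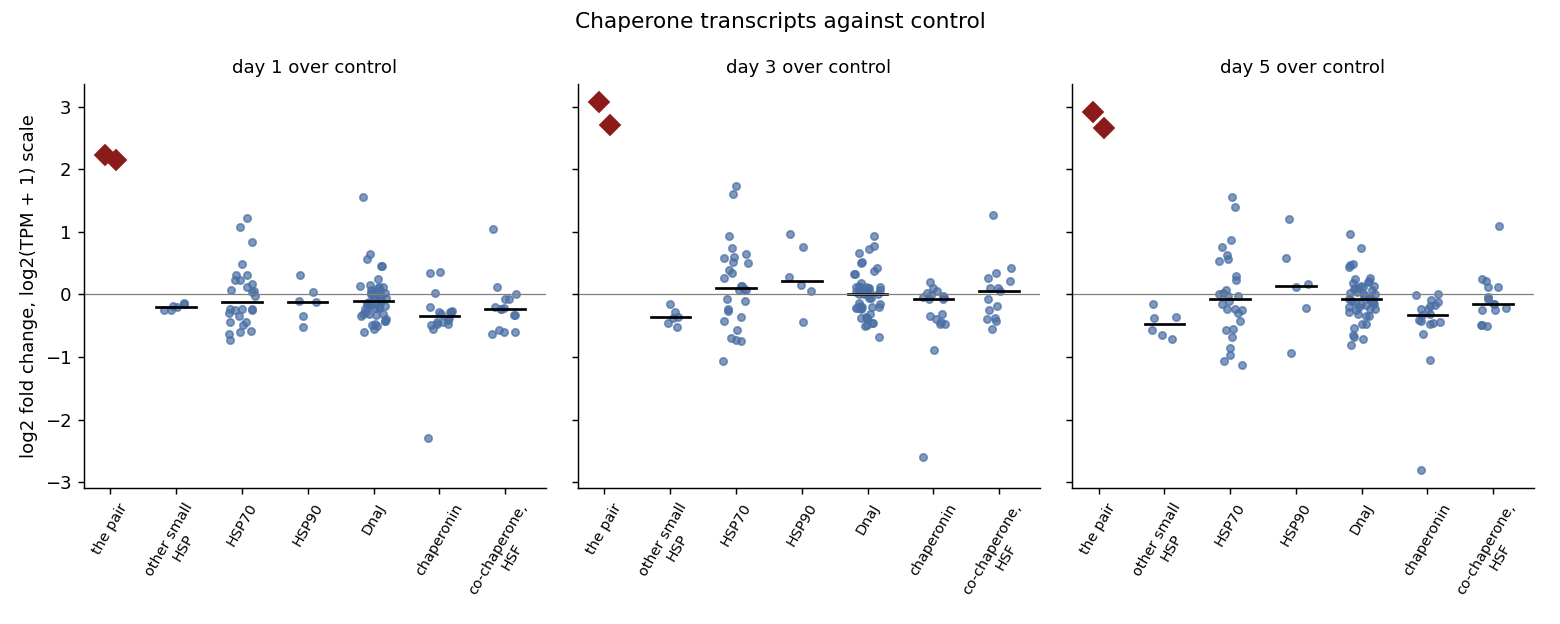
Log2 differences from control (limma, log2(TPM + 1) scale) at 1, 3 and 5 days for each tested transcript of the 6 chaperone lists and for the pair, 1 column per list with a bar at its median. The pair, which was picked for its rise on this contrast, stands above 2 at all times. The list medians lie between -0.47 and 0.21, and the highest list members reach 1.56, 1.73 and 1.55 at days 1, 3 and 5.

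Among the called HSP70 transcripts, the HSP70-like TRINITY_DN39397_c1_g1 (bivalve annotation hit) averaged 16.3 ± 4.64 TPM in control, 22.8 ± 4.16 TPM at day 1, 63.2 ± 43.6 TPM at day 3 and 52.0 ± 23.9 TPM at day 5. It rose by 1.73 at day 3 (limma adjusted p = 0.0328) and by 1.55 at day 5 (limma adjusted p = 0.0409). Both calls were lost without any 1 of the control replicates (adjusted p from 0.0573 to 0.0992 at day 3 and from 0.0676 to 0.111 at day 5). Without the intensity trend both were lost too (0.0856 at day 3 and 0.0918 at day 5). The day 3 call was also lost without day 3 replicate 2 (0.0896), and the day 5 call without day 5 replicate 1 (0.185) or 2 (0.0968), or without any 1 day 1 library (0.0503 to 0.0544). A second HSP70 call of day 3, TRINITY_DN33672_c1_g6, was at 3.35 ± 2.65 TPM against 0.25 TPM in control worms, and was lost in 14 of 21 other settings. TRINITY_DN34254_c1_g7 fell by 1.06 on the log2 scale at day 5 (limma adjusted p = 0.00537), but although its annotation names an HSP70 12A its Swiss-Prot hit is subunit 7 of the general transcription factor TFIID.

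Mitochondrial chaperones were among the calls that were lower. The 10 kDa heat shock protein TRINITY_DN30949_c0_g1 (flatworm hit), the lid of the mitochondrial HSP60 cage, averaged 319.5 ± 28.7 TPM in control, 235 ± 23.3 TPM at day 1, 173 ± 4.02 TPM at day 3 and 155 ± 14.001 TPM at day 5. Its log2 differences were -0.44, -0.88 and -1.04 (limma adjusted p = 0.459, 0.0127 and 0.00291). The day 3 call was lost in 6 of 23 other settings, with adjusted p up to 0.0828 and 0.0551 without control replicate 1, and the day 5 call was lost in 0 of 23. The HSP75 (TRAP1) transcript TRINITY_DN39186_c1_g1, an HSP90 of mitochondria, averaged 7.04 ± 1.19 TPM at day 5 and 14.3 ± 1.27 TPM in control, and fell by 0.93 on the log2 scale (limma adjusted p = 0.0368). That call was lost without any 1 library of control or day 5 (adjusted p from 0.0618 to 0.138) and without day 1 replicate 1 (0.0504). It was also lost without the intensity trend (0.0788) and with rescaling without the 2 most abundant transcripts (0.0623). The remaining called chaperonin, TRINITY_DN41427_c0_g1, is a 10 kDa chaperonin whose Swiss-Prot hit is bacterial, and it averaged 6.58 TPM in control and 0.54, 0.267 and 0.0867 TPM at days 1, 3 and 5. Its limma adjusted p was 0.00387, 0.000324 and 0.000133 at those days. Control libraries ran from 5.49 to 7.92 TPM and no exposed library passed 0.75 TPM, so it met the 1 TPM filter through control alone. Its calls are therefore a description and no support. Without any 1 control library it was no longer tested, so those settings could not challenge the calls. The day 1 call was lost in 2 of the 18 other settings that tested it, the 5 TPM filter (0.149) and a pseudocount of 0.1 (0.234).

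Heat shock factors, which drive heat shock genes, were measured at a few TPM. TRINITY_DN35679_c3_g1, an HSF transcript with a hit to the flatworm Schistosoma mansoni, averaged 4.51 ± 0.448 TPM in control, 3.36 ± 0.246 TPM at day 1, 3.12 ± 0.565 TPM at day 3 and 2.94 ± 0.279 TPM at day 5 (day 5 log2 difference -0.48, limma adjusted p = 0.277). All 9 of its exposed libraries lay below its 3 control libraries. Taken 1 day at a time, all exposed libraries lay below all control libraries for 7.71% of genes at day 1, 10.5% at day 3 and 15.6% at day 5. The share of genes with this order at all 3 days together was not computed. TRINITY_DN35849_c0_g1 averaged 3.10, 1.54, 2.69 and 2.44 TPM, and TRINITY_DN31830_c2_g1 averaged 4.27, 4.03, 3.56 and 3.44 TPM. A BAG3-like transcript, TRINITY_DN31704_c0_g1, averaged 7.20, 4.70, 5.45 and 6.37 TPM, and a second transcript with a BAG3 hit in Swiss-Prot, TRINITY_DN28635_c0_g1, averaged 6.45, 7.19, 8.39 and 7.66 TPM. In mammals BAG3 links small heat shock proteins to HSP70. None of these was called. The only called factor, TRINITY_DN42413_c0_g1, has a plant hit in Swiss-Prot and averaged 2.64 ± 1.01 TPM at day 3 and 0.497 ± 0.317 TPM in control (limma adjusted p = 0.0462, lost in 16 of 21 other settings).

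Likeness to the pair was measured as Pearson's r between log2(TPM + 1) of a transcript and of the pair's sum over the 12 libraries. The values describe these libraries, in which all transcripts of a library share its depth and scaling, and r over the 9 exposed libraries alone was lower for each transcript named. Of the 4714 candidates with a named hit and a mean of at least 5 TPM, 7 had r over 0.9, and among all tested genes 37 had r over 0.9 and 35 had r under -0.9. Since these transcripts were picked for their likeness, their differences from control are given with no test.

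The highest r belonged to TRINITY_DN39308_c2_g1, an ADP-ribosylation factor with a plant Swiss-Prot hit, at 0.951, and to TRINITY_DN33388_c0_g2, a RanBP-type and C3HC4-type zinc finger protein 1, also at 0.951. The mammalian form of the zinc finger protein, HOIL-1, is a subunit of a ubiquitin ligase. TRINITY_DN33388_c0_g2 averaged 17.9 ± 3.89 TPM in control, 30.4 ± 4.21 TPM at day 1, 37.0 ± 7.44 TPM at day 3 and 34.0 ± 1.14 TPM at day 5 (SD, n = 3). A second transcript with the same name, TRINITY_DN31827_c4_g4, had r = 0.905 and averaged 9.32 ± 1.92, 20.4 ± 5.64, 32.9 ± 11.3 and 25.2 ± 6.29 TPM. Among the exposed libraries alone, where r is over 9 libraries, the 2 zinc finger transcripts had r = 0.776 and 0.640.

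Catalase, which breaks down hydrogen peroxide, was the 4th most alike named transcript (TRINITY_DN36204_c0_g1, r = 0.927, and 0.702 over the 9 exposed libraries). It averaged 24.3 ± 2.82 TPM in control, 41.4 ± 9.06 TPM at day 1, 50.1 ± 12.0 TPM at day 3 and 55.5 ± 1.49 TPM at day 5. Its log2 differences from control were 0.73, 0.99 and 1.16, smaller than those of the pair at each time. The remaining named transcripts were a cathepsin L with a ciliate hit (TRINITY_DN2937_c0_g1, r = 0.932), an actin with a ciliate hit (TRINITY_DN21497_c0_g2, r = 0.911), the mitochondrial acyl-CoA synthetase short-chain family member 3 (TRINITY_DN34037_c1_g2, r = 0.907) and DnaJ subfamily C member 22 (TRINITY_DN37965_c0_g4, r = 0.899). The cathepsin L had r = 0.153 over the 9 exposed libraries. Without day 3 replicate 2, the r of these 8 transcripts lay between 0.881 and 0.950.

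Among 1887 candidates with flatworm hits the most alike was TRINITY_DN37097_c2_g2, annotated slc2a-2, a glucose transporter family member, with r = 0.891. Next came a cysteine protease (TRINITY_DN16638_c0_g1, r = 0.882), a stomatin-like protein (TRINITY_DN33694_c0_g4, r = 0.865) and the kinases pim-3 (TRINITY_DN35124_c1_g4, r = 0.854) and pim-2 (TRINITY_DN39481_c2_g4, r = 0.852). They were followed by TBC1 domain family member 24 (TRINITY_DN39180_c4_g6, r = 0.837) and the matrix metalloproteinase mmp1 (TRINITY_DN36780_c0_g3, r = 0.825). The mmp1 transcript, of an enzyme family that cuts extracellular matrix, averaged 58.3 ± 41.6 TPM in control, 118 ± 24.0 TPM at day 1, 162 ± 32.0 TPM at day 3 and 141 ± 26.0 TPM at day 5. Its r over the 9 exposed libraries was 0.793, the highest of these 7 flatworm transcripts.

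**Figure D5:**
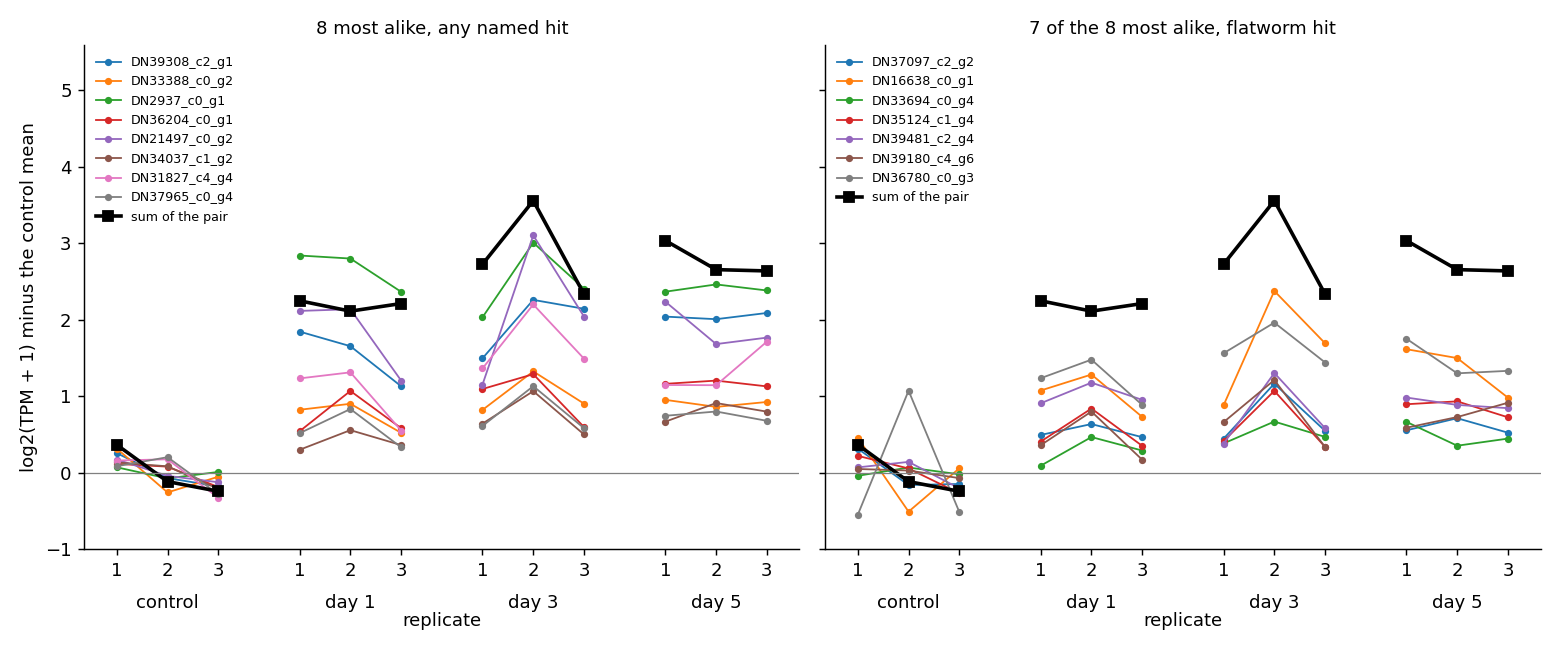
Difference of log2(TPM + 1) from the control mean in the 12 libraries, by group and replicate, for the pair's sum (black) and the 8 most alike transcripts with any named hit (left) or 7 of the 8 with a flatworm hit (right); lines join replicates of a transcript within a group and carry no order. On the right the pair, which was picked for its rise over control, stands above all 7 in every exposed library. On the left the cathepsin L with a ciliate hit (TRINITY_DN2937_c0_g1) stands above the pair in the day 1 libraries.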

How the data were processed

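Polyadenylated RNA of whole worms was measured in 12 libraries, whose groups and replicate numbers are those of the labels. The submitters' processing notes list cutadapt, FastQC, Salmon and edgeR, with versions, settings and roles not given in the sources used here. Values deposited by the authors were read as TPM: the header names no unit, and library totals run from 978610 to 986584. Every listed gene reaches at least 2.01 TPM in some library. TPM keeps no depth, so the depth of each library is unknown and no counting interval is given. The table has 0 per-sample columns that were not used.

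The 27329 of 30535 genes that reached 1 TPM in 3 or more libraries were fitted as log2(TPM + 1), all 4 groups together, with limma 3.58.1 (intensity trend) in R 4.3.3. P-values were adjusted over all of them by the Benjamini-Hochberg method, and a call is an adjusted p under 0.05. The pair's sum was fitted with its 2 rows replaced by 1. The ratio was tested by exact permutation of libraries over groups; its statistic, the sum of squares between groups, has no direction. Python 3.11.15, numpy 2.4.6, pandas 2.3.3 and matplotlib 3.10.9 were used, and the procedure was tested on simulated data. The alternatives were other scalings, filters and pseudocounts (0.1), no trend, a replicate block, the compared libraries alone and each library left out.

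Named genes are the pair, the tested small heat shock transcripts, the 8 named transcripts with the highest r (all hits, and flatworm hits) with a mean of at least 5 TPM, and the strongest called rise and fall of each chaperone list at each time. TRINITY_DN33672_c1_g6, TRINITY_DN41427_c0_g1, TRINITY_DN42413_c0_g1, the Dugesia-named chaperones, the Pfam HSP20 set and TRINITY_DN32575_c0_g1 were named after their values were seen. Of the 8 transcripts with flatworm hits, 1 is not reported here. The pair, the lists and the tests were chosen with earlier results of these data known. The chaperone text patterns also catch Hsc70-interacting and Cdc37 co-chaperones and a TCP11-like gene.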

Additional observations from a re-analysis of the deposited data

How the results depend on the processing

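The pair's differences from control kept their sign under all 23 alternatives, with log2 values of 2.03 to 3.33 over both transcripts and the 3 times. No difference between exposure times passed the threshold under any of them: adjusted p for the sum ran from 0.152 to 0.778 for day 3 against day 1, 0.123 to 0.870 for day 5 against day 1, and 0.983 to 1 for day 5 against day 3. The sign of the small day 5 minus day 3 difference changed without day 3 replicate 2, alone or with control replicate 1, to 0.20 for TRINITY_DN38028_c0_g1, 0.28 for TRINITY_DN38028_c0_g2 and 0.25 for the sum; leaving out 1 library at a time gave -0.42 to 0.20, -0.33 to 0.28 and -0.37 to 0.25. For TRINITY_DN38028_c0_g2 it also became 0.00067 with median-ratio scaling and 0.026 without day 5 replicate 2. The transcript ratio gave p = 0.0412 by exact permutation with a pseudocount of 1, 0.0132 to 0.0970 with 1 library left out, and 0.195 without control replicate 1 and day 3 replicate 2, an alternative added after the data were seen. The chaperone calls over control were 1, 6 and 5 at days 1, 3 and 5. The day 1 count became 0 with rescaling to flatworm hits, the 5 TPM filter, a pseudocount of 0.1, or without those 2 libraries, and 0 to 1 with 1 library left out. It was 0 without any 1 control library, where its only member, TRINITY_DN41427_c0_g1, was no longer tested. The day 3 count became 2 without the trend, 1 with only the 6 compared libraries, 0 without those 2 libraries and 1 to 6 with 1 left out. The day 5 count became 12 with quantile normalization, 12 with median-ratio scaling, 8 without the 2 most abundant transcripts and 3 without the trend. It was 2 to 8 with 1 left out, 2 without any 1 control library and 8 without day 3 replicate 2. Day 5 calls over all genes moved as well, from 186 higher and 609 lower to 679 and 746 with quantile normalization. They were 546 and 678 with median-ratio scaling. The cause of these changes was not tested. Replicate numbers gave no visible pairing of the libraries. The 18 same-number pairs correlated from -0.15 to 0.15 in their deviations from group means, 1 over 0.1, and pairs with other numbers from -0.14 to 0.13. The labels do not say what the numbers stand for, so this check cannot decide whether libraries were paired. With the replicate block the ratio gave an exact permutation p of 0.0278 and the chaperone counts were 1, 4 and 5. For single named genes, calls were kept in 528 of 674 alternatives and lost in 146, and 83 alternatives gave a call to a result that had none. These genes include the transcripts picked for their likeness to the pair. That choice favours a difference from control, so their kept calls are a description and no support. Depth could not be read from TPM, so the precision of transcripts at a few TPM is unknown.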
